A study of Mus musculus with 90 samples.

Results

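Among 35869 genes measured in single cultured blood stem cells, 9 genes were described cell by cell: Rgs2, Ramp1, Vim, Krt18, Lgals1, Plp2, Gstm1, Nupr1 and Ypel3. They were chosen by their values in wild-type cells, as genes far lower in megakaryocyte-like cells (MK) than in cells that did not look like megakaryocytes (NMK), and all 9 symbols were found in the table. The wild-type values are therefore given only as a description. The knockout MK and knockout NMK cells were not used for the choice, and the question put to them was whether knockout MK cells lack the same transcripts.

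The study sorted CD41pos hematopoietic stem cells from mouse bone marrow, cultured them for 2 days, and made a SMART-Seq library, a full-length method, from each picked cell. KO MK (5 cells analysed) and KO NMK (13 cells) came from mice of genotype MxCre1+/-,RUNX1f/f, in which the interferon-inducible Mx1 promoter drives Cre. WT MK (6 cells) and WT NMK (9 cells) came from MxCre1-/-,RUNX1f/f mice, which carry the floxed alleles without Cre. Mice of both genotypes were given 4 injections of poly(I:C), and cells were taken 4 weeks afterwards. These 33 cells are those the authors kept of 46 in the full table. The animals and cultures behind the cells are not named, so every group is treated as 1 sample, SDs are between cells, and no test between groups was run.

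Megakaryocytes are the platelet-forming cells of bone marrow, and stem cells bearing CD41, an integrin subunit of platelets, include cells primed for this fate. RUNX1 is a transcription factor needed for normal megakaryocyte maturation. Maturing megakaryocytes gain platelet transcripts and lose many transcripts of immature progenitors. The 9 genes belong to no single pathway: they encode signalling regulators (Rgs2, Ramp1), filament and carbohydrate-binding proteins (Vim, Krt18, Lgals1), a membrane protein (Plp2), a detoxifying enzyme (Gstm1), a nuclear protein induced by stress (Nupr1) and a growth-suppressing protein that p53 induces in human cells (Ypel3).

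Bases upstream of the transcription start are shown for the 3 genes with the smallest spread between cells in the wild-type comparison, Gstm1, Ramp1 and Ypel3. They are RefSeq sequences of GRCm38.p6, read 5′ to 3′ on the gene's strand, ending before the RefSeq start and any earlier GENCODE start. Gstm1 is shown over 250 bases of the minus strand, chr3:108017974-108018223, Ramp1 over 250 bases of the plus strand, chr1:91179572-91179821, and Ypel3 over 242 bases of the plus strand, chr7:126776713-126776954. Capitals mark matches to the short words described after the sequences.
Gstm1: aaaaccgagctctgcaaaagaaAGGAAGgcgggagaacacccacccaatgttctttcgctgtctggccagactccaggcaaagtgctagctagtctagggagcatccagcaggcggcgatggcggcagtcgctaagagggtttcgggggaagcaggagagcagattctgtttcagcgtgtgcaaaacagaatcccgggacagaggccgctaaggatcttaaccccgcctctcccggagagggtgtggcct
Ramp1: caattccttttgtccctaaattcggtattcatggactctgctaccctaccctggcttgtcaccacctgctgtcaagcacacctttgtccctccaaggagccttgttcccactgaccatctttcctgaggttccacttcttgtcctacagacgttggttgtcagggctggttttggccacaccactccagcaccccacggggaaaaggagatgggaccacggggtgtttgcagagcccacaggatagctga
Ypel3: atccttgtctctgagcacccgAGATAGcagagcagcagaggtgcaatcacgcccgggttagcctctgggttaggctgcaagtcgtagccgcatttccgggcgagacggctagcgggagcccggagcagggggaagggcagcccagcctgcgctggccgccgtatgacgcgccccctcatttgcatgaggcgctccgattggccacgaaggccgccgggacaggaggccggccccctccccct

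Each of 8 upstream windows of 250 bases, from the 7 genes that RefSeq lists (Gstm1 has 2 windows), was searched on both strands for words of 3 factor families. The RUNX words were TGTGGT and, as the second form, TGCGGT. The GATA words were AGATAA as well as TGATAA, and with a final G the words AGATAG as well as TGATAG. The ETS word was AGGAAG. No RUNX word stood in these 8 windows, against 18.6% of 32851 windows of all genes. A GATA word stood in 1 window, that of Ypel3, against 26.5% of all windows. The ETS word stood in 3 windows, 1 of Vim and both of Gstm1, against 29.5% of all windows. No 2 matches overlapped. These matches are descriptions of letters and say nothing about binding.

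Some libraries stood apart from their labels by markers that are not among the 9 genes. The platelet score, the mean log2(TPM + 1) of 20 megakaryocyte and platelet markers, was 8.93, 8.11 and 7.73 in KO MK 1B, 1A and B1-3, but 2.80 in KO MK 2 and 2.38 in KO MK B1-4. In WT MK cells it was 5.16 to 6.08, and the highest NMK cell, KO NMK B1-2b, had 3.29. KO MK 2 and B1-4 therefore lay inside the NMK range. At least 1 TPM was listed for 20 of the 20 markers in the other KO MK cells, but for 11 in KO MK 2 and 8 in KO MK B1-4, in which Gp1bb, Gp6, Vwf, Clec1b and Thbs1 were all at 0. The summed TPM of the list was 844.4 and 1169 in these libraries, against 23058 to 63799 in the other KO MK cells. The libraries labelled KO MK 2 and KO MK B1-4 stayed in the group as labelled, and results are also given without them.

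Among the KO NMK cells, B1-1b and B1-2a had housekeeping scores (the same mean over 14 common genes) of 5.91 and 3.01, against 9.44 or more in the other 31 cells. KO NMK B1-1b had 91.6% of its TPM on mitochondrial genes, and KO NMK B1-2a had 3011 genes above 0. Runx1 itself had a median of 12.6 TPM in KO MK, 6.7 TPM in KO NMK, 11 TPM in WT MK cells and 5.3 TPM in WT NMK cells, and a value for the whole gene cannot show whether the floxed part was deleted. The 5 WT MK cells without a title prefix correlated at 0.972 to 0.981 with each other over all genes, against 0.934 to 0.948 with WT MK B1-1. Whether some of them share cDNA was not tested, and if so the WT MK spread is too small. TPM has a fixed total, so the reads behind each value are unknown.

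Other cell types were checked with marker lists as well. The stem and progenitor list moved with the 9 genes other than Nupr1 in KO MK cells: its summed TPM was 3642 in KO MK 2 and 3173 in KO MK B1-4, 363.0 to 781.0 in the other KO MK cells, 29.9 to 2275 in KO NMK, 120.6 to 823.2 in WT MK and 298.4 to 4862 in WT NMK cells. Of its 18 genes, 15 and 18 had at least 1 TPM in KO MK 2 and KO MK B1-4, against 8 or 9 in the other KO MK cells, in each of which Kit, Flt3 and Procr were at 0. The granulocyte-monocyte list summed to 2339 and 1232 TPM in KO MK 2 and KO MK B1-4 and to between 274.6 and 740.8 TPM in the remaining KO MK cells, to 3.0 to 1331 TPM in KO NMK, 164.6 to 349.1 TPM in WT MK and 11.3 to 1570 TPM in WT NMK cells. KO MK 2 had 8 of its 18 genes at 1 TPM or more and KO MK B1-4 had 5, against 2 to 4 in KO MK 1A, 1B and B1-3. Prtn3, Ly6c2, Csf2ra, Csf3r, Spi1, Irf8, Lyz2 and Fcgr3 were above 0 in both, while Mpo, Elane, Ctsg and S100a8 were at 0. The score of this list was 2.509 in KO MK 2 and 1.904 in KO MK B1-4, above every other kept cell. It reached at most 0.846 in KO MK 1A, 1B and B1-3, 1.415 in KO NMK, 1.130 in WT MK and 1.545 in WT NMK cells. The mast cell and basophil list summed to 1703 to 4221 TPM in KO MK, 0 to 1073 TPM in KO NMK, 120.6 to 4749 TPM in WT MK and 0 to 329.2 TPM in WT NMK cells. At most 2 of its 10 genes reached 1 TPM in any KO MK cell, with Mcpt8, Gzmb, Prss34, Cma1 and Tpsb2 at 0 in every KO MK cell. Fcer1g was above 0 in every KO MK cell and alone made up the 4151 TPM of KO MK 1B. Cpa3 was above 0 in KO MK 1A, 2 and B1-4. The lymphoid list summed to 1213 and 153.1 TPM in KO MK 2 and KO MK B1-4, from 2 and 3 of 14 genes, and to at most 26.3 TPM in KO MK 1A, 1B and B1-3. It summed to 0 to 103.7 TPM in KO NMK, 20.4 to 40.6 TPM in WT MK cells and 0 to 303.8 TPM in WT NMK cells. Cd3e, Cd79a, Pax5 and Rag1 were at 0 in every KO MK cell. Cd3g, Cd79b and Nkg7 were above 0 in both KO MK 2 and KO MK B1-4, and Dntt in KO MK B1-4. The erythroid list had 5 and 3 of 14 genes at 1 TPM or more in KO MK 2 and KO MK B1-4, against 8 to 10 in the other KO MK cells. Its score ran from 1.48 to 4.08 in KO MK and 0 to 4.13 in KO NMK cells. It ran from 2.91 to 3.51 in WT MK and 0.86 to 2.84 in WT NMK cells. Among KO MK cells the score was lowest in B1-4 and 2, and Hba-a1, Klf1 and Car1 were at 0 in every one. Ordered by summed TPM, KO MK 2 instead came highest, at 2682.5 TPM. KO MK 1B, B1-4, 1A and B1-3 followed, at 2527.4, 1233.7, 811.4 and 767.2 TPM. Erythroid sums elsewhere were 0 to 3771.3 TPM (KO NMK), 516.6 to 929.4 TPM (WT MK) and 352.4 to 2384.7 TPM (WT NMK). The stromal and endothelial list summed to at most 25.8 TPM in KO MK, 214.4 TPM in KO NMK, 17.5 TPM in WT MK cells and 46.6 TPM in WT NMK cells. The part of other cell types or of depth in the results was not tested.

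In the cells that chose them, the 9 genes were low in WT MK cells and high in WT NMK cells. A difference was called when the mean log2(TPM + 1) differed by at least 1 and by more than the pooled SD between cells. All 9 were called lower, as the choice ensures, against 3.33% of 11562 genes that averaged at least 1 TPM in either group. In 5 of them (Rgs2, Ramp1, Plp2, Gstm1 and Ypel3) every WT MK cell lay below every WT NMK cell, against 0.528% of those genes. The median difference was -5.52 (range -6.76 to -4.70), beside 0.70 for the median gene. This scale understates differences of genes near 0. Vim was the last of the 9 in this order, 13th of genes averaging at least 10 TPM in either group, at -4.70, and Selplg, not among the 9, came next at -4.67. The order also held Ly6a (-7.19), I730030J21Rik (-5.95), Cd24a (-5.93) and Ldhb (-4.72), which were not among the 9.

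In knockout cells all 9 differences pointed the same way, but the labelled KO MK group was split. With every library kept, the median difference between KO MK and KO NMK cells was -2.74, beside 0.59 for the median gene, and 1 of the 9, Ypel3, was called lower, against 0.614% of 13365 genes. Nupr1, listed at 0 in all KO MK cells, enters this median with a value that depends on the pseudocount, and the other 8 had a median of -2.58 (range -3.06 to -1.05). None had every KO MK cell below every KO NMK cell, against 0.015% of genes. Without the 2 KO NMK libraries of low housekeeping score, 8 of the 9 were called lower, with a median of -3.48 (-3.46 without Nupr1), against 3.35% of 12223 genes. The exception was Ramp1, and Nupr1 was among the 8. The titles carry a prefix, B1, in some cells. It stands on 1 of the 6 WT MK cells and on 0 of the 9 WT NMK cells. Among KO cells it stands on 2 of the 5 KO MK cells, 1 of them B1-4, and on 5 of the 13 KO NMK cells. These include KO NMK B1-1b and B1-2a, the libraries of low housekeeping score. Leaving out prefixed cells thus also leaves out these libraries and KO MK B1-4, and their parts cannot be told apart. Without prefixed cells 6 of 9 were called lower (median -3.25), against 5.99% of genes. Within prefix B1, 1 of 9 was (median -1.39), against 0.582% of genes.

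Without the KO MK libraries of NMK-range platelet score, a choice made after seeing the data, the median difference was -5.02 (-5.15 without Nupr1) and 8 of 9 were called lower, against 1.42% of 13206 genes, with none fully below all KO NMK cells, against 0.0303%. Leaving out both kinds of library gave a median of -5.82 (-5.85, range -7.44 to -3.39, without Nupr1), with 8 of 9 called lower, against 5.23% of 12068 genes. Vim, Plp2 and Gstm1 then had every KO MK cell below every KO NMK cell, against 1.15% of genes. In these last comparisons the exception was Nupr1, which is listed at 0 in all KO MK cells but also in most KO NMK cells. Leaving cells out by their platelet score is not independent of the 9 genes, because over 16 KO cells of sound housekeeping score the platelet and member scores correlated at -0.92, with 3 KO MK cells lying apart from the other 13.

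**Figure D1:**
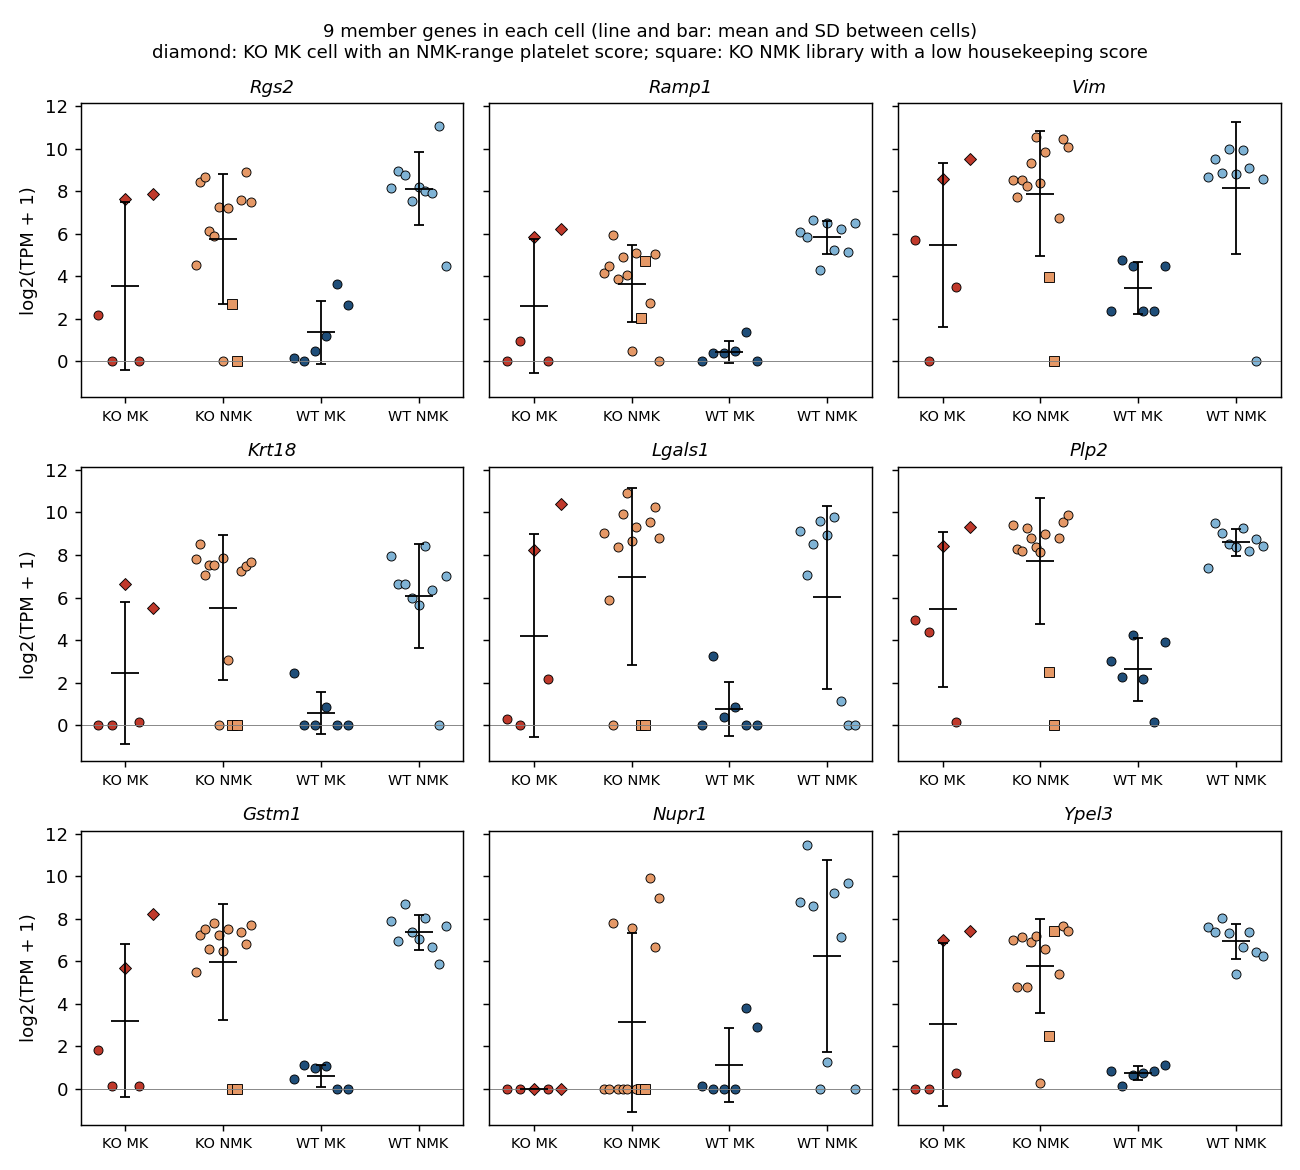
Values of the 9 genes in each of 33 cells, as log2(TPM + 1), by group, with the mean (line) and SD between cells (bar). In KO MK cells, 3 circles lie near the WT MK cells for most genes. The 2 diamonds (KO MK 2 and B1-4) lie among the NMK cells for 8 genes. For Nupr1 they lie at 0, as do 8 of the 13 KO NMK cells. Squares are KO NMK B1-1b and B1-2a.

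Rgs2, a regulator that shortens signalling from G-protein-coupled receptors, is at chr1:143999338-144004161 on the minus strand (GENCODE M21 of build GRCm38, as for the other 8 genes). It had 0, 0, 3.5, 193.7 and 231.6 TPM in KO MK 1B, B1-3, 1A, 2 and B1-4. In KO NMK cells the lowest value was 0, the median 146.3 and the highest 477.0 TPM. Thus 3 KO MK cells lay near the bottom of the KO NMK range and 2 above its median. In WT MK cells Rgs2 ran over 0, 0.85 and 11.2 TPM (lowest, median, highest), and in WT NMK cells over 21.4, 279.0 and 2137 TPM, with no overlap. The difference was -2.21 (pooled SD 3.31) for KO MK against KO NMK cells, -5.82 (pooled SD 2.36) without the doubted libraries (KO MK 2 and B1-4, KO NMK B1-1b and B1-2a), and -6.76 (pooled SD 1.62) for WT MK against WT NMK cells.

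Ramp1 encodes the accessory protein that turns the calcitonin receptor-like receptor into a receptor for the neuropeptide CGRP. The gene is at chr1:91179822-91225196 on the plus strand. It had 0.9, 0, 0, 56.7 and 73.6 TPM in KO MK 1B, B1-3, 1A, 2 and B1-4, against 0, 16.6 and 60.5 TPM (lowest, median, highest) in KO NMK cells. KO MK B1-4 thus exceeded every KO NMK cell, while 3 KO MK cells were near 0. WT MK cells had at most 1.6 TPM of Ramp1, and WT NMK cells had 18.6 to 97.2 TPM, with a median of 67.0 TPM. The difference between KO MK and KO NMK cells was -1.05 (pooled SD 2.24), the smallest of the 9, and -3.39 (pooled SD 1.75) without the doubted libraries, beside -5.39 (pooled SD 0.69) in WT cells. With all libraries the log2 difference was below 0 while the mean TPM was higher in KO MK cells (26.2 TPM) than in KO NMK cells (19.7 TPM).

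Ramp1 was also the 1 gene of the 9 called lower in KO NMK than in WT NMK cells. It averaged 19.7 TPM ± 16.9 (SD, n = 13) in KO NMK and 62.6 TPM ± 27.9 (SD, n = 9) in WT NMK cells, a difference of -2.18 (pooled SD 1.5), and -2.13 without the low-housekeeping libraries. The ranges overlapped, since KO NMK 1B reached 60.5 TPM. High WT NMK values helped to choose Ramp1, so a lower KO NMK value is partly fixed by the choice. Its receptor partner Calcrl averaged 20.5 TPM in KO MK, 14.4 TPM in KO NMK, 6.17 TPM in WT MK cells and 13.4 TPM in WT NMK cells. Calcrl was called higher in KO MK cells than in WT MK cells, at 1.61, but not without KO MK 2 and B1-4, and in no other comparison.

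Vim encodes vimentin, the main intermediate filament protein of mesenchymal and many blood cells, and is at chr2:13573927-13582826 on the plus strand. It had 0, 10.3, 50.6, 378.9 and 734.0 TPM in KO MK 1B, B1-3, 1A, 2 and B1-4. In KO NMK cells it ran over 0, 364.6 and 1494 TPM (lowest, median, highest). The values of 0 and 14.8 TPM were those of KO NMK B1-2a and B1-1b, and the other KO NMK cells had 105.8 TPM or more. The 3 KO MK cells of high platelet score lay below all of these. WT MK cells had Vim at 4.1, 12.6 and 26.3 TPM, and WT NMK cells at 0, 456.8 and 1018 TPM, so that WT NMK 4A alone overlapped. The difference was -2.42 (pooled SD 3.20) for KO MK against KO NMK cells and -5.88 (pooled SD 1.61) without the doubted libraries, and -4.70 (pooled SD 2.55) for WT MK against WT NMK cells.

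Krt18, a type I keratin that normally pairs with keratin 8, is at chr15:102028180-102032027 on the plus strand. It had 0, 0.1, 0, 97.3 and 45.2 TPM in KO MK 1B, B1-3, 1A, 2 and B1-4, against 0, 177.1 and 370.3 TPM (lowest, median, highest) in KO NMK cells. In KO NMK cells the values were at 0 in 3 cells (B1-1b, B1-2a and 4A), 7.4 TPM in 5B and 133.0 TPM or more in the rest. KO MK 2 and B1-4 were thus below most KO NMK cells but far above the other KO MK cells. Krt18 reached at most 4.5 TPM in WT MK cells, and ran over 0, 97.3 and 342.6 TPM in WT NMK cells, where 4A alone was at 0. The difference was -3.06 (pooled SD 3.38) in KO cells and -6.48 (pooled SD 2.36) without the doubted libraries, beside -5.52 (pooled SD 2.01) in WT cells. Krt8, which was singled out after its values were seen, was at or below 0.1 TPM in all 33 cells, so Krt18 was listed without its usual partner in every cell that held it.

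Lgals1 encodes galectin-1, a lectin that binds galactose-bearing glycans, and is at chr15:78926725-78930465 on the plus strand. It had 0, 3.5, 0.2, 301.8 and 1342 TPM in KO MK 1B, B1-3, 1A, 2 and B1-4, against 0, 448.1 and 1960 TPM (lowest, median, highest) in KO NMK cells. It was at 0 in 3 KO NMK cells, B1-1b, B1-2a and 1B. Lgals1 ran over 0, 0.15 and 8.5 TPM in WT MK cells, and over 0, 361.8 and 869.4 TPM in WT NMK cells. WT NMK 4A, 4B and 3A were at 1.2 TPM or below, so the WT groups overlapped. The WT difference was -5.27 (pooled SD 3.47). In the KO comparison the difference was -2.77 (pooled SD 4.32), and -7.44 (pooled SD 2.81) without the doubted libraries, the largest of the 9.

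Plp2, a small membrane protein of the MARVEL family, is at chrX:7667941-7671390 on the minus strand. It had 20.1, 0.1, 29.9, 348.0 and 634.7 TPM in KO MK 1B, B1-3, 1A, 2 and B1-4. In KO NMK cells it ran over 0, 439.5 and 927.9 TPM (lowest, median, highest), and from 284.5 TPM upwards in the 11 cells of sound housekeeping score. All KO MK cells of high platelet score were below these 11. Plp2 ran over 0.1, 5.5 and 17.8 TPM in WT MK cells, and over 168.0, 369.0 and 723.7 TPM in WT NMK cells, with no overlap. The difference was -2.26 (pooled SD 3.15) in KO cells and -5.72 (pooled SD 1.20) without the doubted libraries, beside -5.98 (pooled SD 1.04) in WT cells. A share of 66.2% of the 50-base stretches of its transcript also stands in Gm6169, a separately annotated gene, so its reads may have been split or shared, and its level is uncertain.

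Gstm1, a mu-class glutathione transferase, is at chr3:108012255-108017973 on the minus strand. It had 0.1, 0.1, 2.6, 50.9 and 300.3 TPM in KO MK 1B, B1-3, 1A, 2 and B1-4, against 0, 150.3 and 222.6 TPM (lowest, median, highest) in KO NMK cells. KO MK B1-4 exceeded every KO NMK cell. In the 11 KO NMK cells of sound housekeeping score the lowest value was 44.3 TPM, and KO MK 1B, B1-3 and 1A were all below it. Gstm1 ran over 0, 0.7 and 1.2 TPM in WT MK cells, and over 57.0, 167.4 and 409.4 TPM in WT NMK cells, with no overlap. The KO difference was -2.78 (pooled SD 2.98), and -6.37 (pooled SD 0.74) without the doubted libraries, beside -6.75 (pooled SD 0.73) in WT cells. Of its 50-base stretches 23.1% stand in other genes, chiefly Gstm2-ps1, so its level too is uncertain.

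Nupr1, a small nuclear protein induced by stress, is at chr7:126623249-126630861 on the minus strand. It is listed at 0 in all 5 KO MK cells, the libraries of low platelet score included, and no fold is given. In KO NMK cells 5 of 13 (38.5%, exact binomial 95% interval 13.9 to 68.4%) had 1 TPM or more: 101.8, 187.8, 221.6, 499.3 and 958.5 TPM in B1-3b, 4B, 1B, B1-5 and B1-2b. Among WT MK cells 2 of 6 had 1 TPM or more (33.3%, 4.33 to 77.7%), at 6.5 and 12.9 TPM, and among WT NMK cells 7 of 9 did, with a median of 394.9 TPM and a highest value of 2891 TPM. Nupr1 was thus the gene of the 9 that KO MK 2 and B1-4 did not hold. Without KO NMK B1-1b and B1-2a, both at 0, the KO NMK share was 5 of 11 (45.5%, 16.7 to 76.6%). The upper end for 0 of 5 KO MK cells is 52.2%, a limit above both the 38.5% and the 45.5% of the KO NMK cells. These intervals cover counting error only.

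Ypel3, a yippee-like gene, is at chr7:126776955-126780514 on the plus strand, 146.1 kb from Nupr1. It had 0, 0.7, 0, 126.8 and 171.9 TPM in KO MK 1B, B1-3, 1A, 2 and B1-4, against 0.2, 121.2 and 205.3 TPM (lowest, median, highest) in KO NMK cells. It was high (169.4 TPM) in KO NMK B1-2a, where other members were mostly at 0, and 0.2 TPM in KO NMK 4B. Ypel3 ran over 0.1, 0.75 and 1.2 TPM in WT MK cells, and over 41.6, 159.9 and 260.3 TPM in WT NMK cells, with no overlap. The difference was -2.74 (pooled SD 2.72) in KO cells and -5.67 (pooled SD 1.97) without the doubted libraries, beside -6.21 (pooled SD 0.67) in WT cells.

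**Figure D2:**
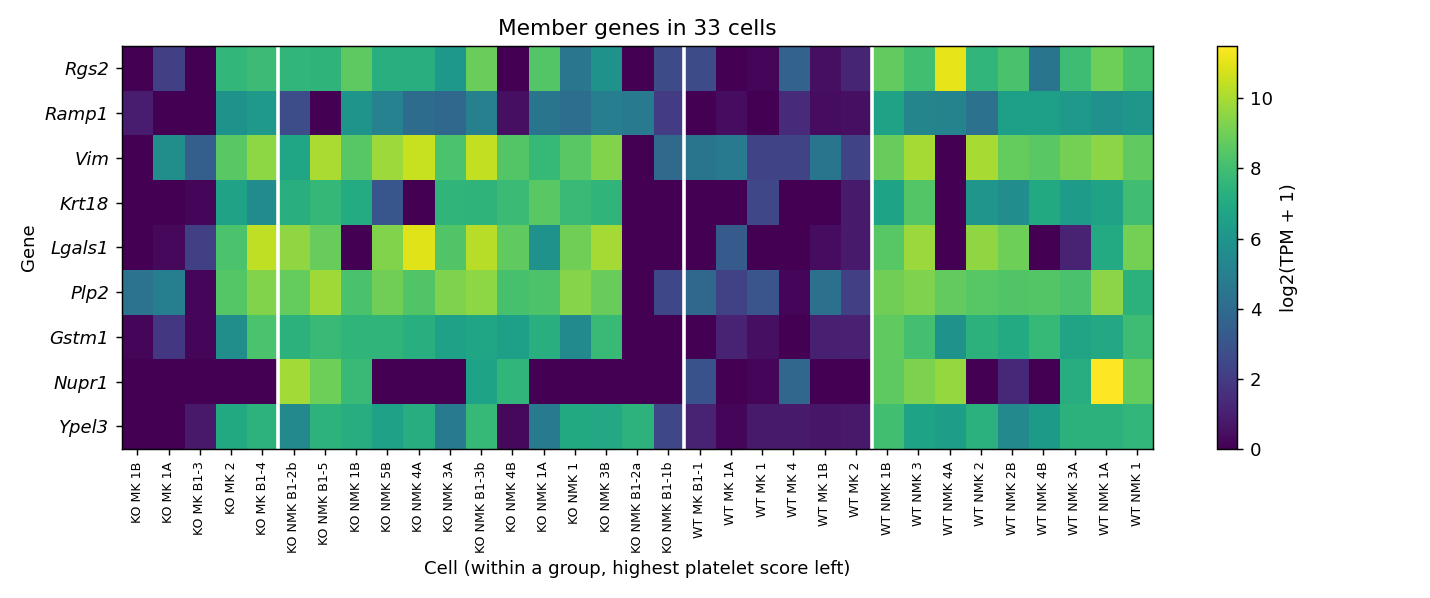
Log2(TPM + 1) of the 9 genes (rows) in 33 cells (columns), with cells of a group ordered by platelet score, highest left, and white lines between groups. KO MK 2 and B1-4, at the right of the KO MK block, show the NMK-like colours for the 8 genes other than Nupr1. Nupr1 is at 0 (dark) in the whole block, as it is in 8 of the 13 KO NMK cells.

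Taking the genes together, the member score (their mean log2(TPM + 1)) was 0.61, 0.76 and 1.66 in KO MK 1B, B1-3 and 1A and 6.45 and 7.17 in KO MK 2 and B1-4. In the 11 KO NMK cells of sound housekeeping score it ran from 5.32 to 8.09, in WT MK cells from 1.05 to 1.67 and in WT NMK cells from 5.22 to 8.29. KO MK cells 1B, B1-3 and 1A carried 1, 2 and 4 of the 9 genes at 1 TPM or more, and KO MK 2 and B1-4 carried 8 each. None of the kept cells of sound housekeeping score had a member score between 1.67 and 5.22, but KO MK 1, which the authors left out as an outlier, had 3.36, with a platelet score of 8.61 and a housekeeping score of 9.82. KO MK 1 had 8205 genes above 0, against 11896 or more in the kept KO MK cells. Its erythroid list summed to 39442 TPM, against at most 2682.5 TPM in the kept KO MK cells. The libraries KO NMK B1-1b and B1-2a had member scores of 1.52 and 1.35, and their platelet scores were low as well.

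**Figure D3:**
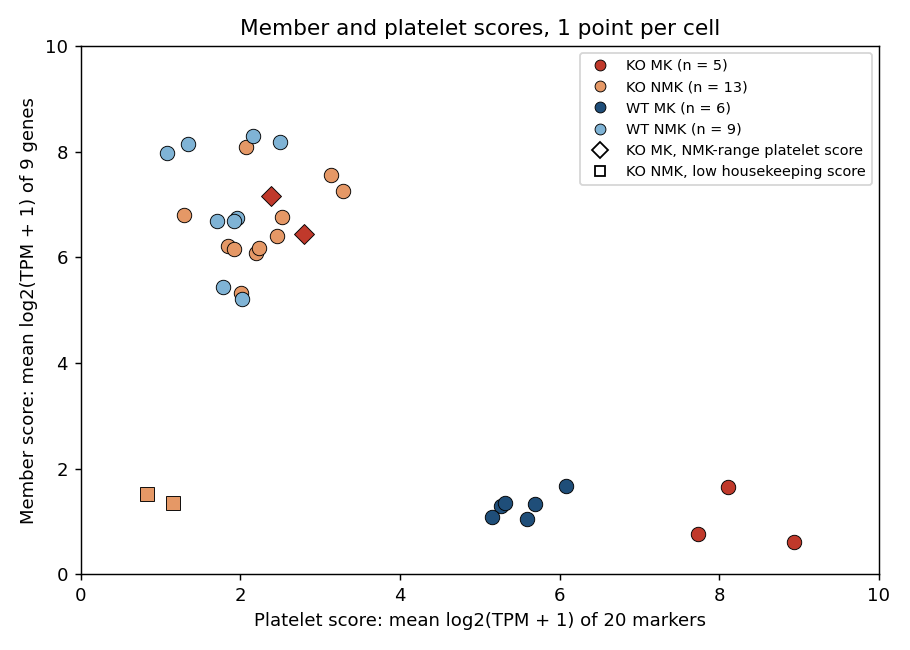
Member score (mean log2(TPM + 1) of 9 genes) against platelet score (of 20 markers), 1 point per cell. MK cells of high platelet score sit at member scores of 0.61 to 1.67, KO MK 2 and B1-4 (diamonds) sit among the NMK cells at 6.45 and 7.17, and KO NMK B1-1b and B1-2a (squares) are low on both axes.

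Within NMK cells the median correlation among the 9 genes was near 0. Over the 11 KO NMK cells of sound housekeeping score, the median Pearson correlation of 36 gene pairs was 0.06, from -0.53 for Vim with Krt18 to 0.76 for Rgs2 with Ypel3. Over the 9 WT NMK cells it was 0.13, from -0.62 for Rgs2 with Krt18 to 0.92 for Vim with Krt18. Both Vim and Krt18 are at 0 in WT NMK 4A. Over cells of both kinds the median pair was 0.63 in 16 KO and 0.74 in 15 WT cells, in which MK and NMK cells lie apart. All these points share libraries, and their depth is unknown.

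KO MK cells had higher means of 8 genes than WT MK cells, but these rest on 2 libraries. With all KO MK libraries, Ramp1, Lgals1, Plp2 and Gstm1 were called higher, against 9.74% of 11796 genes, and the median of the 9 was 2.18 (2.24 without Nupr1), beside 0.09 for the median gene. Without KO MK 2 and B1-4, none was called higher, against 15.4% of 11345 genes, and 5 of the 9 averaged at least 1 TPM in either group, with a median of -0.40 (-0.17 without Nupr1). Values above the WT MK range in the other KO MK cells were those of Vim, at 50.6 TPM in KO MK 1A against at most 26.3 TPM in WT MK cells, of Plp2, at 29.9 and 20.1 TPM in KO MK 1A and 1B against at most 17.8 TPM, and of Gstm1, at 2.6 TPM in KO MK 1A against at most 1.2 TPM. The WT MK cells helped to choose the genes, so a higher value elsewhere is partly fixed by the choice.

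In NMK cells, KO and WT values overlapped for all 9 genes. The share of all genes with such overlap was not taken, so the overlap is a description only. With all libraries, 1 of the 9 (Ramp1) was called lower, against 2.19% of 12835 genes, and none higher, against 2.52%. Without the low-housekeeping libraries Ramp1 was again the 1 called lower, against 2.06%, and the median of the 9 was -0.29 with 5 below and 4 above 0, beside 0.36 for the median gene. With them it was -1.17. Nupr1 had the largest difference of the 9, -3.10 (pooled SD 4.34), with means of 151.5 TPM in KO NMK and 586.2 TPM in WT NMK cells, and was not called. Plp2 had medians of 439.5 TPM in KO NMK and 369.0 TPM in WT NMK cells. The WT NMK cells helped to choose the genes, so a lower value in KO NMK cells is partly fixed by the choice. Prefix B1 stands on 5 of the 13 KO NMK cells and on 0 of the 9 WT NMK cells. Prefix and genotype are thus not balanced here. In cells without a prefix, and so without the low-housekeeping libraries, 2 of the 9 were called lower (median -0.38), against 2.36% of genes.

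**Figure D4:**
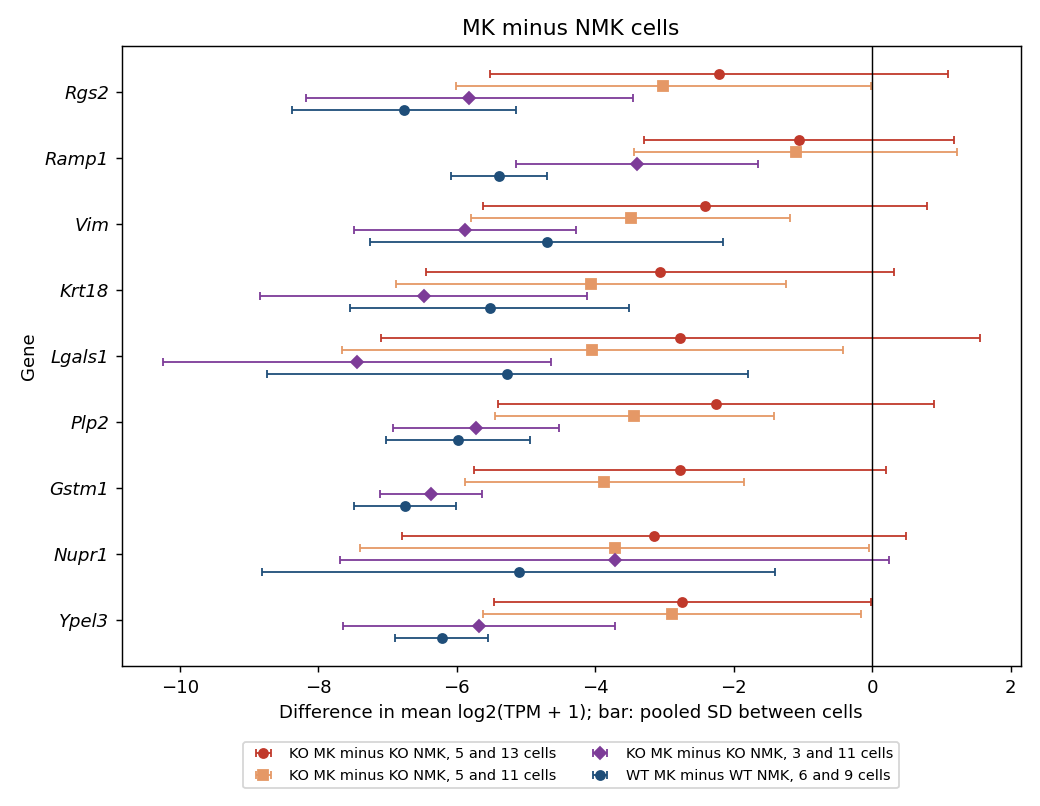
Difference in mean log2(TPM + 1) between MK and NMK cells for each gene, with the pooled SD between cells as a bar, for KO cells with all libraries, without KO NMK B1-1b and B1-2a, and without KO MK 2 and B1-4 as well, and for WT cells. With all libraries the KO differences of the 8 genes other than Nupr1 (-3.06 to -1.05) are smaller in size than the WT ones (-6.76 to -4.70), and without the doubted libraries they run from -7.44 to -3.39. The KO values of Nupr1, listed at 0 in all KO MK cells, depend on the pseudocount and are no fold.

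The gene families around the 9 genes were listed without the 9, and few of their members were called lower in KO MK cells than in KO NMK cells. Over all genes, 0.614% were called lower and 13.3% higher in that comparison, and 3.33% lower and 25.6% higher in WT MK cells against WT NMK cells. Without the doubted libraries, 5.23% of 12068 genes were called lower and 18.1% higher in KO MK cells against KO NMK cells. Of 14 tested S100 and annexin genes (calcium-binding S100 proteins and membrane-binding annexins), none was called lower and 1 higher (Anxa3) in KO cells, with a median difference of 1.44. Without the doubted libraries 4 (S100a4, S100a6, S100a11 and Anxa6) were called lower, against 5.23% of genes, and Anxa3 higher. In WT cells 6 were called lower (S100a4, S100a6, S100a11, Anxa1, Anxa5 and Anxa6) and 1 higher (Anxa7), with a median of -1.05. S100a6 averaged 584.1 TPM in KO MK, 626.4 TPM in KO NMK, 219.6 TPM in WT MK cells and 1880 TPM in WT NMK cells. Anxa1, an annexin with anti-inflammatory roles, averaged 912.7 TPM in KO MK, 706.0 TPM in KO NMK, 79.3 TPM in WT MK cells and 857.0 TPM in WT NMK cells, and was called higher in KO MK cells than in WT MK cells, at 3.39.

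Of 7 other regulators of G-protein signalling, none was called lower and Rgs10 and Rgs18 were called higher in KO MK cells than in KO NMK cells, with a median of 0.82. With the doubted libraries left out, Rgs19 was called lower and Rgs10 and Rgs18 higher. In WT cells 1 of 6 was called lower (Rgs19) and 1 higher (Rgs10), with a median of 0.54. Rgs10 averaged 225.3 TPM in KO MK, 16.05 TPM in KO NMK, 98.9 TPM in WT MK cells and 13.9 TPM in WT NMK cells, with differences of 5.14 in KO and 4.89 in WT cells. Rgs18, abundant in platelets, averaged 894.7 TPM in KO MK, 189.3 TPM in KO NMK, 425.2 TPM in WT MK cells and 251.8 TPM in WT NMK cells. The Rgs18 difference was 3.11 in KO cells and 0.90, not called, in WT cells. The calcitonin receptor list had 2 genes tested in KO and 3 in WT cells, none lower, with Ramp2 called higher in WT cells.

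Of 21 other glutathione transferases, none was called lower and Gsta1 and Gsta2 were called higher in KO MK cells than in KO NMK cells, with a median of 1.31. With the doubted libraries left out, Gstm3 was called lower and 4 (Gsta1, Gsta2, Gstk1 and Mgst2) higher. In WT cells 2 of 18 were lower (Gstm3 and Gstm4) and 2 higher (Gstm2 and Gstz1), with a median of -0.28. Gstp1, the most abundant of the list, averaged 668.1 TPM in KO MK, 411.6 TPM in KO NMK, 528.0 TPM in WT MK cells and 456.2 TPM in WT NMK cells. Of 14 genes of glutathione synthesis and recycling, none was lower and 4 higher (Gpx7, Gpx8, Ggct and Nqo1) in KO cells, with a median of 1.6. Without the doubted libraries 2 (Gclc and Gpx1) were called lower, against 5.23% of genes, and 5 (Gpx4, Gpx7, Gpx8, Ggct and Nqo1) higher, against 18.1%. In WT cells Gpx1, which reduces hydrogen peroxide, was called lower and Gsr, Gpx8 and Txnrd1 higher, with a median of 0.66. Nqo1, a quinone reductase, averaged 921.1 TPM in KO MK, 216.5 TPM in KO NMK, 341.8 TPM in WT MK cells and 261.8 TPM in WT NMK cells.

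The integrated stress response list, built around Atf4 and its targets, had none of 12 genes called lower and 3 called higher (Trib3, Chac1 and Ppp1r15a) in KO MK cells against KO NMK cells, with a median of 1.12. Without the doubted libraries none of 11 was lower and 4 (Atf3, Sesn2, Ppp1r15a and Hspa5) higher. In WT cells none of 11 was lower and Asns, Herpud1 and Hspa5 were higher, with a median of 0.84. Of 8 MARVEL and proteolipid genes, none was called lower and Cmtm3 higher in KO cells, with a median of -0.18. Without the doubted libraries Myadm and Cmtm7 were called lower, against 5.23% of genes, and Cmtm3 higher. Myadm and Cmtm7 were also called lower in WT cells, where Cmtm3, Cmtm6 and Marveld1 were higher and the median was 0.84. Cmtm7 averaged 233.8 TPM in KO MK, 554.9 TPM in KO NMK, 106.5 TPM in WT MK cells and 320.0 TPM in WT NMK cells.

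Of 5 other intermediate filament and lamin genes, none was called lower in either genotype, and Lmna was called higher in KO and Lmnb1 and Lmnb2 in WT cells, with medians of -0.18 and 0.90. The 5 tested galectins had none called lower or higher in either genotype, with medians of 0.70 in KO and 0.74 in WT cells. Lgals9 averaged 813.2 TPM in KO MK, 506.8 TPM in KO NMK, 346.8 TPM in WT MK cells and 230.0 TPM in WT NMK cells. Vimentin and keratin partners (4 tested in KO and 3 in WT cells) and other yippee-like genes (2 in KO and 1 in WT cells) likewise had none called.

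Of 5406 genes compared over the 16 KO cells of sound housekeeping score, the 10 whose pattern was most like the member score were Ly6a (Pearson correlation 0.96), Prickle3 (0.94), Lcp1 (0.94), Ly6e (0.94), Adgrl4 (0.93), Tmem176b (0.92), Spi1 (0.92), S100a4 (0.92), Hmgn1 (0.91) and Psmb8 (0.91). These correlations describe the split between 3 KO MK cells and the 13 other cells, which share libraries. Ly6a, the stem cell antigen Sca-1, had 0.1, 0, 0, 342.2 and 199.0 TPM in KO MK 1B, B1-3, 1A, 2 and B1-4, and averaged 179.7 TPM in KO NMK, 0.18 TPM in WT MK cells and 319.6 TPM in WT NMK cells. Spi1, a transcription factor of myeloid and lymphoid cells, had 0, 1.9, 0, 42.4 and 136.7 TPM in the same order. Both were thus high in KO MK 2 and B1-4, as were the 9 genes other than Nupr1.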

How the data were processed

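The authors deposited TPM values to 1 decimal, for 46 libraries and, without those they judged outliers, for 33 libraries, which were the main data. The submitters' processing notes name FastQC 0.11.7 and cutadapt 1.9.1, build mm10, STAR 2.6.1e as well as featureCounts 1.6.2. How TPM was derived, with which gene models and strand setting, and how outliers were judged is not given in the sources used here. Because TPM sums to the same total in each library, an abundant transcript lowers the values of all others, and depth is unknown. Of 90 labelled samples 44 are not analysed here, and the full table has 1 further column that was not used.

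Groups came from the labels, 1 library per cell. Because each group counts as 1 sample, no test between groups was run. Genes averaging at least 1 TPM in either group were compared by their mean log2(TPM + 1), a pseudocount of 1, and called at 1 log2 unit and more than the pooled SD between cells. Shares of cells have exact Clopper-Pearson 95% intervals. The genes, the 11 gene lists and the 8 marker lists were chosen with earlier results of these data known. Named genes are the 9 members, up to 4 genes per list with the highest mean of at least 10 TPM over all cells, and the 10 most like the member score. List genes that a count names were added after their values were seen, and so were the libraries left out for a low platelet score. Alternatives were the full table, libraries with a housekeeping score under 6 or 8 left out, pseudocounts of 0.1 and 10, ratios of means, medians, rescaling, other filters and limits, title prefixes, and each cell left out in turn. The comparison was run on simulated data with less spread between cells than the 9 genes showed in KO MK against KO NMK cells with all libraries. That run therefore does not bear on their calls. Positions came from GENCODE M21 and upstream sequences from RefSeq, GRCm38.p6, matched by symbol for 7 of 9 genes. The other two are Plp2 and Lgals1. Python 3.11.15 was used with pandas 2.3.3, numpy 2.4.6, matplotlib 3.10.9 and scipy 1.17.1.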

Additional observations from a re-analysis of the deposited data

Results flagged for a closer look

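Of 27 gene and group combinations, in groups of 4 to 10 cells, 7 held a cell far from the other cells of its group. The limit is passed by chance in about 1 in 20 groups of normally distributed values. TPM of single cells is skewed and the WT groups chose the genes, so the count of 7 is a description only. In KO MK cells, B1-4 had 1342 TPM of Lgals1, against 301.8 TPM in the next cell, and 300.3 TPM of Gstm1, against 50.9 TPM. Both belong to a library with an NMK-range platelet score. In WT MK cells, replicate 4 had 1.6 TPM of Ramp1, against 0.4 TPM in the next cell, replicate 1 had 4.5 TPM of Krt18, against 0.8 TPM, and replicate 1A had 8.5 TPM of Lgals1, against 0.8 TPM. All 3 values are below those of most NMK cells. In WT NMK cells, 4A had 2137 TPM of Rgs2, against 490.8 TPM in the next cell, while Vim, Krt18 and Lgals1 were at 0 in it. WT NMK 1A had 2891 TPM of Nupr1, against 817.1 TPM in the next cell.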

How the results depend on the processing

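The 9 genes were lower in WT MK cells than in WT NMK cells under every alternative run, with 9 called lower when each cell was left out in turn (median difference -6.02 to -5.36). That median was -7.39 with a pseudocount of 0.1, -3.65 with 10 and -6.62 with medians over cells. These WT cells chose the genes, so lower values under the alternatives are largely fixed by the choice. For KO MK against KO NMK cells the count called lower, 1 in the values reported, depended on the libraries. It was 0 in the full table (0.631% of all genes) and with a pseudocount of 10 (0.471%). Without libraries of a housekeeping score under 6 it was 8, where 3.35% of all genes were called lower, against 0.614% in the values reported. It was 6 in the full table without libraries scoring under 6 (9.02% of all genes) and also without those under 8 (5.56%), and 7 with medians (2.15%). In cells without a title prefix, which leaves out KO NMK B1-1b and B1-2a and KO MK B1-4, it was 6 (5.99%). It was 8 without the KO MK libraries of low platelet score (1.42%), and 8 (5.23%, median difference -5.82) without the low-housekeeping libraries as well. With each cell left out it ran from 0 to 7 and the median difference from -3.43 to -1.98. The highest count, 7, came without KO MK B1-4, followed by 5 without KO MK 2, 4 without KO NMK B1-2a and 3 without KO NMK B1-1b, and it was 0 or 1 when any other 1 cell was left out.

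For KO MK against WT MK cells the count called higher was 4 as reported, where 9.74% of all genes were called higher. It was 1 with a pseudocount of 0.1 (11.1% of all genes) and 8 with ratios of means (19.4%, median difference 4.42). It was 0 with medians (12.1%), 2 without a title prefix (10.1%) and 1 within prefix B1 (13.1%). With the WT MK cells without a prefix counted as 1 cell it was 0 (6.17%). Without KO MK 2 and B1-4 the median difference turned round to -0.40 and that of Ramp1 to -0.13, also without the low-housekeeping libraries. There the count called higher was 0 (15.4% of all genes). With each cell left out it ran from 0 to 8, at 0 without KO MK 2 or B1-4, 8 without KO MK 1B, 7 without KO MK B1-3 and 1 or 2 when 1 WT MK cell was left out, and the median from 1.21 to 3.06. For KO NMK against WT NMK cells the count called lower was 1 as reported, where 2.19% of all genes were called lower. It was 2 with medians (6.18% of all genes) and in cells without a title prefix (2.36%). With each cell left out it was 1 to 2 (median difference -1.36 to -0.88). Why these values moved was not tested. No paired analysis was possible, because the labels do not say what the numbers, letters and prefix of the replicate names mean. The depth behind a TPM value is unknown, so a value of 0 does not show that a transcript was absent.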

Other observations

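Among the 13 libraries the authors left out as outliers, KO MK 1 had a platelet score of 8.61, within the range of KO MK 1B, 1A and B1-3, a housekeeping score of 9.82 and a member score of 3.36, between those of the kept MK cells of high platelet score and of the NMK cells of sound housekeeping score. It had 838.7 TPM of Ypel3, 248.5 TPM of Vim, 118.5 TPM of Plp2 and 50.9 TPM of Gstm1, while the other 5 genes were at 0. Its Ypel3 value exceeded that of every kept cell, of which the highest, WT NMK 1B, had 260.3 TPM. KO MK 1 had 8205 genes above 0, against 11896 or more in the kept KO MK cells. Its erythroid and its mast cell and basophil lists summed to 39442 and 12950 TPM, against at most 2682.5 and 4221 TPM in those cells. KO MK B1-1, also left out, had a member score of 2.99, a platelet score of 5.78 and a housekeeping score of 7.65. All 9 genes were at 1 TPM or more in KO MK B1-1, but mitochondrial genes held 71.5% of its TPM. It also had 27999 genes above 0, against at most 14487 in the kept KO MK cells. What part these limits had in its values of the 9 genes was not tested. KO NMK B1-1a, left out too, had a housekeeping score of 10.6 and a member score of 5.32, at the low end of the kept KO NMK cells of sound housekeeping score.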
